A study of Mus musculus with 8 samples.

Results

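The EMT transcription factors Snai1, Snai2, Zeb1, Zeb2, Twist1, Twist2 and Prrx1 were followed in RNAseq of primary mouse peritoneal mesothelial cells (MCs), the cells that line the peritoneal cavity. The genes were chosen by name, and all 7 of 7 were present among the 13687 genes of the table analysed. The cultures came from 2 WT mice and 2 mice without caveolin-1 (CAV1-/-, Cav-1- in the labels), the membrane protein that shapes caveolae. Both genotypes were littermates of the constitutive knockout strain B6.Cg-CAV1tm1mls/J, and the age of the mice was not given in the sources used here. MCs were freed from the parietal peritoneum by digestion, grown to confluence, and then kept static or mechanically stretched over 24 h. Each mouse gave 1 static and 1 stretched culture, so that each of the 4 groups (WT static, WT stretch, CAV1-/- static, CAV1-/- stretch) held 2 cultures of different mice, and replicate 1 or 2 of a genotype is 1 mouse in both conditions. The same replicate number in WT and in CAV1-/- denotes different mice. The labels thus give fewer replicates for each group than the paper states for these libraries, and the grouping here follows the labels.

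The mesothelial-to-mesenchymal transition (MMT) is the conversion of MCs into fibroblast-like cells, a form of the epithelial-to-mesenchymal transition (EMT). In an EMT a small set of DNA-binding proteins represses epithelial genes and favours mesenchymal ones. Snail and Zeb proteins are zinc finger repressors that bind E-box sequences in promoters of junction genes such as that of E-cadherin. Twist proteins are basic helix-loop-helix factors that pair with E proteins, and Prrx1 is a paired-type homeobox factor of mesenchyme. Mesothelium is derived from mesoderm and expresses mesenchymal genes beside its keratins. The comparisons asked whether RNA of these factors differed with stretch in WT and in CAV1-/- MCs, with genotype in static and in stretched cultures, and whether the stretch effect differed between genotypes.

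Values are CPM (the reads of a gene relative to all reads of its library, scaled between libraries by the TMM method), and the libraries held between 9777738 and 21203938 reads. A fold change is a difference of log2(CPM + 1) estimated by limma over all 8 libraries. A gene was called at an adjusted p (Benjamini-Hochberg over the 13665 genes tested) under 0.05. Cav1 was measured first as a check of the labels. It was at 764 and 275 CPM in WT static and at 570 and 247 in WT stretch, against 34.5 and 18.9 in CAV1-/- static and 20.04 and 12.8 in CAV1-/- stretch, so every CAV1-/- library lay below every WT library. The log2 fold change of Cav1 by genotype was -4.11 in static cultures (SE 0.62, adjusted p = 0.102) and -4.47 in stretched cultures (SE 0.62, adjusted p = 0.124). With the replicate number as a block, which joins different mice, the adjusted p were 0.00722 and 0.00453. On stretch Cav1 was lower in all 4 mice, as were 16.9% of all genes. Its average log2 fold change was -0.46, with an adjusted p of 0.991 without and 0.0467 with the mouse as a block. With 2 mice per genotype, p-values rest on the spread between 2 cultures of different mice in each group.

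Cell type markers were read before the factors. The summed level of 15 mesothelial markers was 3170 to 4326 CPM in the WT cultures and 947 to 1262 in the CAV1-/- cultures, and none of the 15 was at 0 in any culture. The 16 leukocyte markers summed to 5296 and 5281 CPM in the static and stretched cultures of CAV1-/- replicate 1, to 348 and 384 in those of CAV1-/- replicate 2, and to 94.3 to 527 in the WT cultures. For 13 of these 16 genes, both values of CAV1-/- replicate 1 exceeded the values of the other 6 cultures. The 11 fibroblast markers summed to 1699 to 2171 CPM in the replicate 2 cultures of both genotypes and to 264 to 959 in the replicate 1 cultures, and Tcf21 was the marker at 0, in both cultures of CAV1-/- replicate 1. The 9 smooth muscle and pericyte markers summed to 871 to 1506 CPM in the replicate 1 cultures and to 490 to 645 in the replicate 2 cultures. The 6 endothelial markers summed to 24.1 to 73.7 CPM, and Emcn was at 0 in both cultures of CAV1-/- replicate 2. In bulk RNA, fewer cells of a type and less RNA per cell cannot be told apart. The part of these differences between cultures in the values of the factors was not tested.

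Of the 7 factors, 0 were called in any of the 6 comparisons, and 0 were called under any of the alternatives. Of all genes tested, in the fit without a block, 0% were called for stretch in WT, 0% for stretch in CAV1-/-, 0% for the average stretch effect over both genotypes and 0% for the interaction, against 0.0732% for genotype in static cultures and 0.0585% for genotype in stretched cultures. At an unadjusted p of at most 0.05, the shares were 2.27% for stretch in WT, 2.09% for stretch in CAV1-/-, 4.73% for the average stretch effect, 0.483% for the interaction, 8.17% for genotype in static and 6.26% for genotype in stretched cultures. By that rule limma counted 1 factor of 7 in each genotype comparison, Zeb2, and 0 of 7 in the stretch comparisons and the interaction. With the mouse as a block, Snai1 was below 0.05 before adjustment for stretch in WT and in CAV1-/- and for the average, and Snai2 for stretch in CAV1-/-, beside 14.5%, 13.3% and 21% of all genes for these 3 comparisons in turn. For the interaction with the block, 0 factors were, beside 4.25% of all genes. After adjustment, the fit with the mouse as a block called 1.47% of all genes for the average stretch effect and 0.00732% for stretch in CAV1-/-. It called 0% for stretch in WT and for the interaction. edgeR and DESeq2 called 0 of 7 in every comparison. Groups of 2 against 2 cultures cannot go below p = 0.333 in an exact two-sided permutation test of 1 gene, so the fit over all genes is the test given.

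The 250 bases before the start site of Snai1 are shown because they are the promoter window, among those of the 5 factors with a window in the RefSeq table that could be used, that holds the E-box CAGGTG or its reverse complement CACCTG, a sequence that Snail and Zeb proteins are known to bind. The window lies at chr2:167537945-167538194 on the plus strand of GRCm38.p6, and capitals mark the E-box, which starts 126 bases before the start site.
Snai1: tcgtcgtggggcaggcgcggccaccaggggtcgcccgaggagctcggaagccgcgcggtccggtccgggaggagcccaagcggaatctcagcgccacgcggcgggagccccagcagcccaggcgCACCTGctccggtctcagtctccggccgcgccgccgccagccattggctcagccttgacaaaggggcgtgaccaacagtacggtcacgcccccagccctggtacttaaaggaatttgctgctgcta
These letters, searched on both strands, were found in 17.2% of 32851 promoter windows of the same length, and the windows of Zeb2 (4 start sites), Twist1, Twist2 and Prrx1 held none. The TEAD motif GGAATG was found in 1 of the 4 Zeb2 windows and in that of Prrx1, against 12.6% of all windows. The AP-1 motif TGANTCA was found in 1 Zeb2 window, at 2 places, against 6.75% of all windows. The SMAD motif GTCTG was found in the windows of Twist1 and Prrx1, against 42.2% of all windows. Snai2 had no window there, and Zeb1 was left out of the search, so neither was read for these motifs. A match of letters is a description and not a binding site.

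Levels were compared between the factors per kb of annotated exon. Snai1 was the highest, at 36.5 ± 15.2 CPM per kb (mean ± SD over the 8 cultures), followed by Twist1 at 20.4 ± 3.81, Prrx1 at 11.2 ± 5.78, Zeb1 at 6.51 ± 1.08, Zeb2 at 5.66 ± 1.83, Snai2 at 5.30 ± 1.89 and Twist2 at 3.50 ± 2.29. Snai1 was above Twist1 in 7 of 8 cultures, and Twist1 was above Prrx1 in 8 of 8. Prrx1 was above Zeb1 in 5 of 8 cultures, Zeb1 above Zeb2 in 6, Zeb2 above Snai2 in 4 and Snai2 above Twist2 in 7. From Prrx1 down to Snai2, neighbours in this order were therefore not separated beyond their spread over cultures. The order depended on the length used. With the longest transcript in place of all exons, Prrx1 was at 19.0 ± 9.80 CPM per kb, and Twist1 was above it in 4 of 8 cultures. Zeb2 and Zeb1 were then at 12.4 ± 3.99 and 11.5 ± 1.91, with Zeb2 above Zeb1 in 4 of 8 cultures and Zeb1 above Snai2 in 8 of 8. The spread over cultures differed between factors as well. The highest culture was 16.6-fold above the lowest for Twist2 and 7.003-fold for Prrx1, but 1.56-fold for Zeb1.

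**Figure D1:**
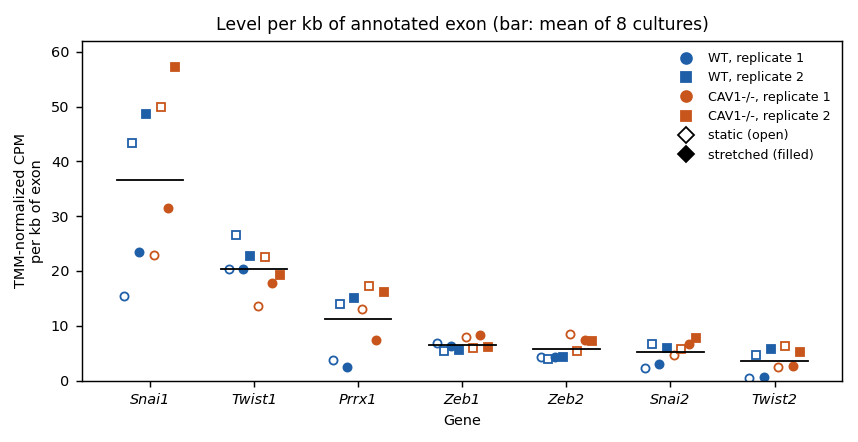
Level of each factor (x axis) in TMM-normalized CPM per kb of annotated exon (y axis, linear), with 1 point per culture and a bar at the mean of 8 cultures. Blue is WT and orange is CAV1-/-, circles are replicate 1 and squares replicate 2, and open symbols are static and filled symbols stretched cultures. Snai1 spans 15.4 to 57.2 and lies above the other factors in most cultures, while Zeb1 spans 5.30 to 8.27.

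Snai1, the Snail family repressor usually expressed early in an EMT, lies on chromosome 2 (167538195 to 167542814, plus strand) with 1 annotated transcript. It was measured at 25.04 and 70.2 CPM in WT static, 38.0 and 78.7 in WT stretch, 37.2 and 80.9 in CAV1-/- static, and 51.0 and 92.7 in CAV1-/- stretch. The groups overlapped, since replicate 2 was above replicate 1 in every group, by 1.82-fold to 2.80-fold. Within each mouse, however, the stretched culture was above its static culture, by 1.52-fold and 1.12-fold in the WT mice and by 1.37-fold and 1.15-fold in the CAV1-/- mice. The difference of Snai1, positive in 4 of 4 mice, averaged 0.35 ± 0.20 (SD) on the log2(CPM + 1) scale, with a two-sided exact sign-flip permutation p = 0.125, which is the smallest p that 4 pairs allow (0.656 after Benjamini-Hochberg adjustment over the 7 factors). Of all genes tested, 14.5% were higher on stretch in all 4 mice. The average stretch effect on Snai1 had an adjusted p of 0.999 without and 0.113 with the mouse as a block in limma. Between genotypes, the log2 fold change of Snai1 was 0.38 (SE 0.65) in static and 0.33 (SE 0.65) in stretched cultures, with adjusted p of 0.942 and 1.000.

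Snai2 encodes Slug, the Snail family member known from neural crest and wound edges, and lies on chromosome 16 (14705852 to 14709385, plus strand). Its counts were low, with 66 to 286 reads per library. The values were 4.62 and 13.3 CPM in WT static, 5.97 and 11.9 in WT stretch, 9.31 and 11.5 in CAV1-/- static, and 13.3 and 15.7 in CAV1-/- stretch. In CAV1-/- MCs both stretched cultures were above both static cultures, as were 12.4% of all genes, and the log2 fold change was 0.44 (SE 0.49, adjusted p = 1.000). In WT, 1 mouse was higher and the other lower on stretch. In stretched cultures both CAV1-/- values lay above both WT values, as for 14.6% of all genes, with a log2 fold change of 0.71 (SE 0.49, 95% interval -0.50 to 1.91, adjusted p = 0.958). In static cultures the genotypes overlapped for Snai2.

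**Figure D2:**
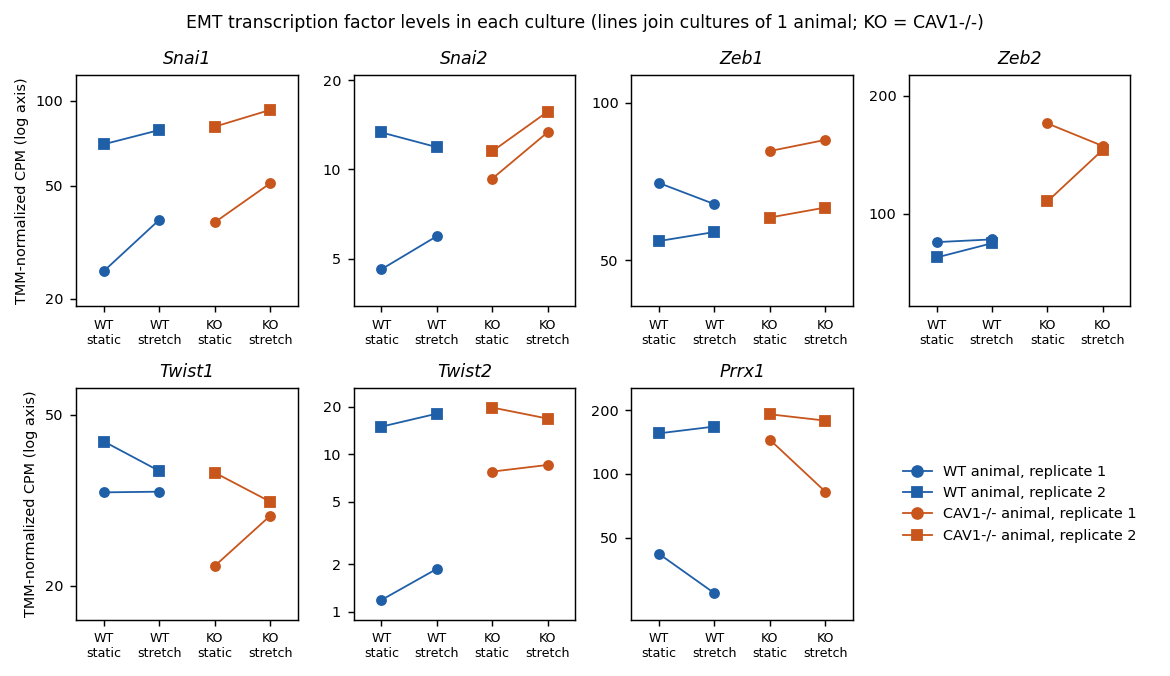
TMM-normalized CPM (y axis, log scale, its own range in each panel) of the 7 factors in each culture, by group (x axis). Lines join the static and the stretched culture of 1 mouse, with circles for replicate 1 and squares for replicate 2. All 4 Snai1 lines go up, the CAV1-/- points of Zeb2 (107 to 170.0 CPM) lie above the WT points (77.3 to 85.9 CPM), and the values of Twist2 and Prrx1 are higher in replicate 2 than in replicate 1 of every group.

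Zeb2 encodes the Smad-interacting zinc finger repressor SIP1, which is also known from neural crest, myeloid cells and mesenchyme, and lies on chromosome 2 (44983632 to 45117395, minus strand). It was the factor with the clearest separation of genotypes. Zeb2 was at 84.6 and 77.3 CPM in WT static and at 85.9 and 84.0 in WT stretch, against 170.0 and 107 in CAV1-/- static and 149 and 146 in CAV1-/- stretch. All 4 CAV1-/- cultures, from 2 mice, were above all 4 WT cultures, from 2 mice, and the replicates of WT differed by little. The share of all genes with this order over both conditions was not counted. The log2 fold change of Zeb2 was 0.73 in static cultures (SE 0.21, 95% interval 0.22 to 1.25, unadjusted p = 0.0131, adjusted p = 0.382) and 0.79 in stretched cultures (SE 0.21, 95% interval 0.27 to 1.303, unadjusted p = 0.00976, adjusted p = 0.459). Over the alternatives the adjusted p ranged from 0.0812 to 0.983 in static and from 0.104 to 0.955 in stretched cultures. Of all genes tested, 16.1% in static and 14.6% in stretched cultures had both CAV1-/- values above both WT values.

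Zeb2 is expressed by myeloid cells, and its highest values were in the cultures of CAV1-/- replicate 1, where the leukocyte markers were highest. The summed leukocyte markers were at 348 and 384 CPM in CAV1-/- replicate 2 and at 495 and 527 CPM in WT replicate 1. Zeb2 was at 107 and 146 CPM in the former and at 84.6 and 85.9 CPM in the latter. The members of the sum differed in order between these mice. Lyz2, its largest member, was lower in the former (201 and 231 against 302 and 345 CPM). Itgam (20.5 and 21.2 against 19.9 and 12.4 CPM) and Fcer1g (4.73 and 3.72 against 3.50 and 3.25 CPM) were higher. Over the 8 cultures, Pearson's r of Zeb2 was 0.80 with the summed leukocyte markers and -0.90 with the summed mesothelial markers. The part of leukocyte or mesothelial RNA in the Zeb2 values was not tested. Without both cultures of CAV1-/- replicate 1, an alternative chosen after the data were seen, the log2 fold change was 0.41 in static (adjusted p = 0.534) and 0.77 in stretched cultures (adjusted p = 0.384). The static difference thus fell by more than 1.5 times on leaving out this mouse, while the stretched one did not. On stretch, Zeb2 was at 0.876 times the static value in CAV1-/- replicate 1 and at 1.36 times in CAV1-/- replicate 2, and at 1.02 and 1.09 times in the WT mice. The antisense gene Zeb2os shares 3.27% of the Zeb2 exon bases and was at 1.05 to 4.21 CPM.

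**Figure D3:**
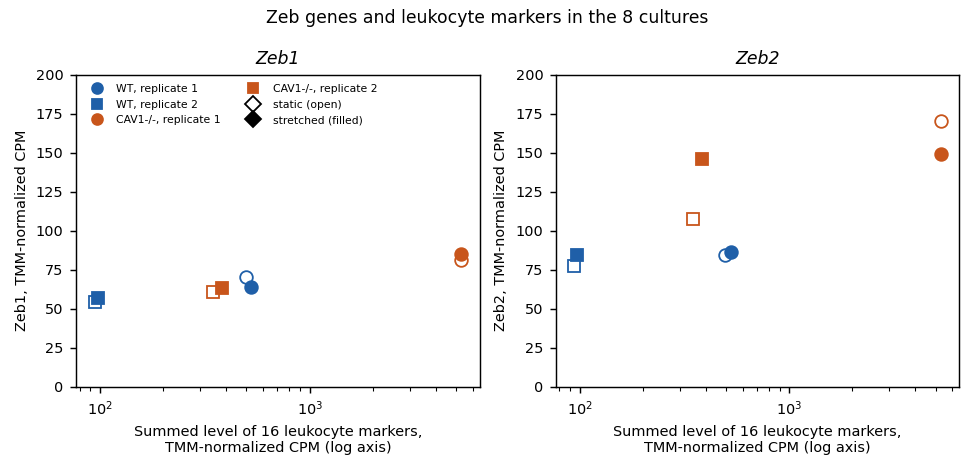
CPM of Zeb1 (left) and Zeb2 (right) on a linear y axis against the summed CPM of 16 leukocyte markers on a log x axis, with 1 point per culture. Blue is WT and orange CAV1-/-, circles are replicate 1 and squares replicate 2, and open symbols are static and filled symbols stretched. The cultures of CAV1-/- replicate 1 lie alone at 5281 and 5296 CPM of leukocyte markers, the other CAV1-/- cultures lie at 348 and 384 CPM, between the WT mice, and Zeb2 is above WT in all 4 CAV1-/- cultures.

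Zeb1 is the paralogue of Zeb2 and a repressor of E-cadherin. It lies on chromosome 18 (5591860 to 5775467, plus strand) and was the factor with the smallest spread. Its values were 70.2 and 54.4 CPM in WT static, 64.0 and 56.6 in WT stretch, 80.8 and 60.3 in CAV1-/- static, and 84.9 and 63.0 in CAV1-/- stretch. The groups overlapped in both genotype comparisons, with log2 fold changes of 0.17 (SE 0.23, 95% interval -0.38 to 0.72, adjusted p = 0.920) and 0.28 (SE 0.23, 95% interval -0.27 to 0.83, adjusted p = 0.967). Without CAV1-/- replicate 1 the static difference was -0.035. The highest Zeb1 levels were in the cultures of CAV1-/- replicate 1 and the lowest in those of WT replicate 2. Over the 8 cultures, Pearson's r of Zeb1 was 0.97 with the summed leukocyte markers and 0.97 with the summed smooth muscle and pericyte markers. With the summed fibroblast markers it was -0.90. The part of each cell type in the Zeb1 values was not tested. On stretch Zeb1 was at 0.911 to 1.05 times the static value of the same mouse.

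Twist1 is a basic helix-loop-helix factor of mesoderm and cranial mesenchyme on chromosome 12 (33957671 to 33959829, plus strand). It was at 33.0 and 43.4 CPM in WT static, 33.1 and 37.0 in WT stretch, 22.3 and 36.7 in CAV1-/- static, and 29.1 and 31.4 in CAV1-/- stretch. It was the factor with negative log2 fold changes by genotype, at -0.39 in static (SE 0.26, adjusted p = 0.810) and -0.21 in stretched cultures (SE 0.26, 95% interval -0.83 to 0.42, adjusted p = 0.991). In stretched cultures both CAV1-/- values were below both WT values, as for 15.9% of all genes, and in static cultures the groups overlapped. Leaving out 1 culture in turn moved the static value of Twist1 between -0.74 (without CAV1-/- static replicate 2) and -0.043 (without CAV1-/- static replicate 1). On stretch Twist1 was at 1.00 and 0.854 times the static value in the WT mice and at 1.31 and 0.856 times in the CAV1-/- mice.

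Twist2, also called Dermo1, is the paralogue of Twist1 known from dermis, and lies on chromosome 1 (91801461 to 91848028, plus strand). It was at 1.19 and 14.9 CPM in WT static, 1.87 and 18.0 in WT stretch, 7.75 and 19.7 in CAV1-/- static, and 8.54 and 16.8 in CAV1-/- stretch. Replicate 2 was 12.6-fold and 9.63-fold above replicate 1 in WT, and 2.55-fold and 1.97-fold above it in CAV1-/-. The lowest value rested on 17 reads. The genotype differences of 1.19 (SE 1.22) and 0.82 (SE 1.22) on the log2 scale were within this spread, with 95% intervals of -1.79 to 4.17 and -2.16 to 3.79. The antisense gene Gm29100 shares 46.5% of the exon bases of Twist2, the handling of strand was not given in the sources used here, and reads of the pair therefore cannot be told apart.

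Prrx1 marks limb and craniofacial mesenchyme and fibroblasts, and lies on chromosome 1 (163245119 to 163313710, minus strand). It was at 41.9 and 156 CPM in WT static, 27.3 and 167 in WT stretch, 145 and 191 in CAV1-/- static, and 82.6 and 179 in CAV1-/- stretch. Replicate 2 was again the higher in every group, by 1.32-fold to 6.13-fold. On stretch Prrx1 was lower in 3 of 4 mice, at 0.652 times the static value in WT replicate 1, 0.569 times in CAV1-/- replicate 1 and 0.934 times in CAV1-/- replicate 2, and at 1.08 times in WT replicate 2. The average change of -0.35 ± 0.42 (SD, 4 mice) gave an exact sign-flip permutation p = 0.375. The log2 fold change by genotype was 1.03 (SE 0.97, adjusted p = 0.873) in static and 0.83 (SE 0.97, adjusted p = 0.991) in stretched cultures, and the groups overlapped in both. Leaving out 1 culture in turn moved the static value between 0.099 (without WT static replicate 1) and 1.97 (without WT static replicate 2).

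**Figure D4:**
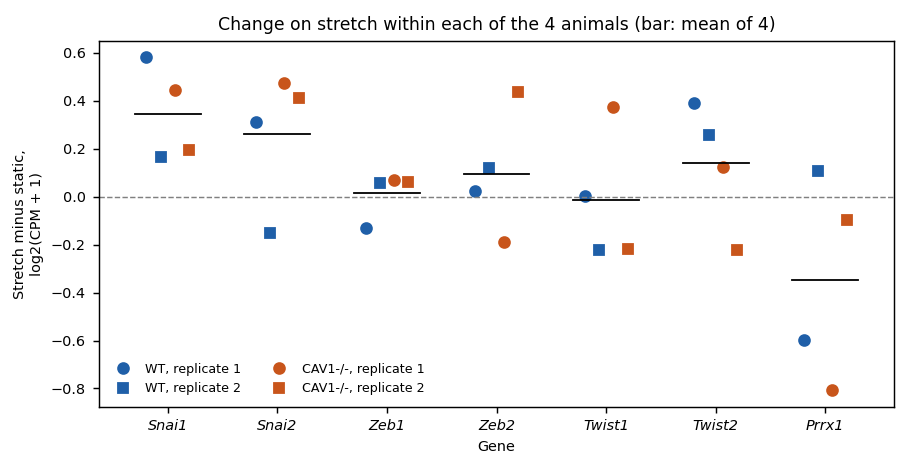
Stretched minus static culture of the same mouse on the log2(CPM + 1) scale (y axis) for each factor (x axis), with 1 point per mouse and a bar at the mean of 4. Blue is WT and orange CAV1-/-, circles are replicate 1 and squares replicate 2. Snai1 lies above 0 in 4 of 4 mice (0.16 to 0.58), Snai2, Zeb1, Zeb2 and Twist2 in 3, Twist1 in 2 and Prrx1 in 1.

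Read as a group, the factors had a median log2 fold change on stretch of 0.07 in WT and 0.08 in CAV1-/-, beside -0.02 and -0.000019 over all genes tested. By genotype the median was 0.38 in static and 0.71 in stretched cultures, beside -0.01 and 0 over all genes. In both genotype comparisons 6 of the 7 factors had a positive value, Twist1 being the exception, where 47.8% and 50% of all genes were positive. The genotype comparisons use the same mice for static and stretched cultures, and the 95% intervals of the factors other than Zeb2 included 0 in both. Differences of the stretch effect between genotypes ran from -0.37 (Twist2, SE 1.73) to 0.36 (Snai2, SE 0.70), and the interaction gave an adjusted p of 1.000 for all 7 factors without the block. The interaction compares changes within mice, and the fit with the mouse as a block gave smaller errors, with 95% intervals of -0.45 to 0.56 for Zeb2, -0.93 to 0.18 for Twist2 and -0.20 to 0.93 for Snai2, and adjusted p of 0.947 or more for the 7 factors.

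**Figure D5:**
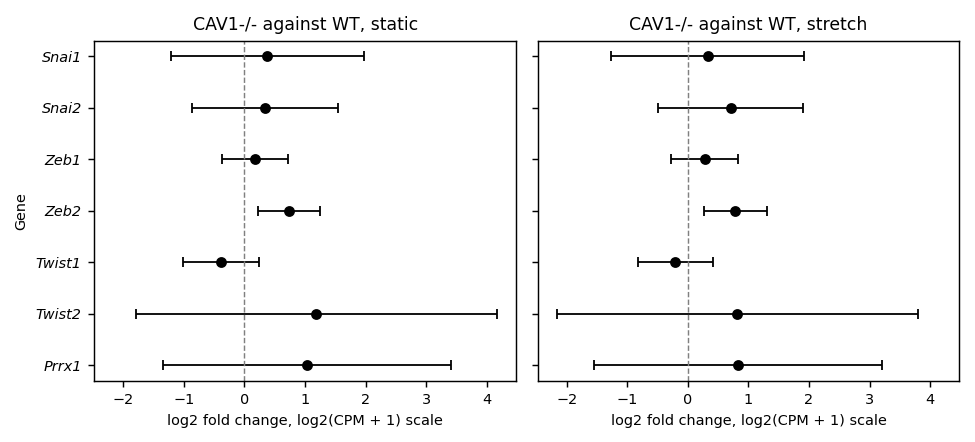
CAV1-/- against WT on the log2(CPM + 1) scale (x axis) for each factor (y axis) in static (left) and stretched (right) cultures, with points for the limma estimate and bars for its 95% confidence interval over 2 cultures a group. The intervals of Zeb2 lie above 0 (0.22 to 1.25 and 0.27 to 1.303) before adjustment for the genes tested, and those of the other 6 factors include 0.

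The factors differed in which replicate was higher. The replicate number joins different mice in WT and CAV1-/-, so an order seen in 4 groups rests on 1 pair of mice per genotype. Replicate 2 was above replicate 1 in all 4 groups for Snai1, Snai2, Twist1, Twist2 and Prrx1, as for 21.4% of all genes, and below it in all 4 groups for Zeb1 and Zeb2, as for 21.7% of all genes. The summed fibroblast markers were higher in the replicate 2 cultures as well, and the summed smooth muscle and pericyte markers were higher in the replicate 1 cultures. The members of the latter sum differed. Myh11, Cnn1, Des and Mcam were higher in replicate 1 of every group, and Notch3 was higher in replicate 2 of every group. For Cspg4, Kcnj8, Smtn and Lmod1 the order of the replicates varied between groups. Across the 8 cultures, which came from 4 mice, Pearson's r of log2 values was 0.94 between Twist2 and Prrx1, 0.92 between Snai1 and Twist2, and -0.85 between Zeb1 and Twist1, given as a description. Among all genes tested, those most like each factor over the 8 cultures were Cblb, Rnf34 and Gpr153 for Snai1 (r up to 0.992), Lphn2, Pqlc1 and B4galnt1 for Snai2 (up to 0.977), Kcnn3, Lrrc8d and Yod1 for Zeb2 (up to 0.981), and Per2, Schip1 and Taf1c for Twist1 (up to 0.989). Those most like Twist2 were Pcdh1, Peg12 and Vdr (up to 0.992), those most like Prrx1 were Fgf7, Tcf4 and Limk1 (up to 0.983), and those most like Zeb1 were Slc16a7, the lysozyme gene Lyz1 and Thsd7a (up to 0.986).

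Partners of the bHLH factors were read from a list of E proteins and Id proteins, the latter being inhibitors that bind E proteins and keep them from DNA. Of the 9 list genes tested, 0 were called by limma, edgeR or DESeq2 for the average stretch effect (2 at an unadjusted p of at most 0.05 in limma), and 5 were lower on stretch in all 4 mice, beside 16.9% of all genes. All 4 Id genes were among them. Id3 was at 254 and 211 CPM in WT static and at 190 and 130 in WT stretch, and at 161 and 192 in CAV1-/- static and at 99.0 and 123 in CAV1-/- stretch, a fall to 0.614 to 0.748 times the static value of the same mouse. Its average log2 fold change was -0.61 (SE 0.16), with an adjusted p of 0.984 without and 0.0291 with the mouse as a block. Id4 was at 0.370 to 0.768 times its static value, Id1 0.629 to 0.886 times and Id2 0.582 to 0.944 times, with adjusted p of 0.0784, 0.0598 and 0.0593 with the block. By genotype, Id4 was at 12.4 and 13.4 CPM in WT static against 4.78 and 4.93 in CAV1-/- static (log2 fold change -1.25, SE 0.34, adjusted p = 0.338), with groups that did not overlap.

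Of 23 other EMT and mesenchymal transcription factors tested, 0 were called by limma, edgeR or DESeq2 in any comparison, and 1 to 4 had an unadjusted p of at most 0.05 in limma in each comparison other than the interaction, where 0 had. Hmga2, a chromatin protein that is known to promote Snai1 and Twist1 expression, was at 148 and 169 CPM in WT static, 250.1 and 210.4 in WT stretch, 281 and 222 in CAV1-/- static, and 369 and 321 in CAV1-/- stretch. It was higher on stretch in all 4 mice, by 1.24-fold to 1.69-fold (average log2 fold change 0.50, SE 0.12, adjusted p = 0.984, 0.0517 with the mouse as a block), and higher in CAV1-/- in both conditions (0.66 and 0.58, SE 0.17, adjusted p = 0.323 and 0.522). Osr1, a zinc finger factor of intermediate mesoderm, was lower on stretch in all 4 mice (average log2 fold change -0.78, adjusted p = 0.991, 0.0327 with the block). Tcf21, a bHLH factor of mesenchyme, was at 26.2 and 60.5 CPM in WT static and at 5.77 and 37.1 in WT stretch. It had 0 reads in both cultures of CAV1-/- replicate 1 and was at 0.82 (static) and 0.44 CPM (stretch) in CAV1-/- replicate 2, on 8 reads each. With the replicate number as a block, 1 of the 23 factors was called lower in CAV1-/- in each condition, beside 1.35% of all genes in static and 0.607% in stretched cultures.

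The inducers of the factors were read in a list of 28 genes of the TGF-beta, BMP, Notch and related pathways, of which limma called 0 in every comparison (3 to 4 at an unadjusted p of at most 0.05 in each comparison other than the interaction). For the average stretch effect edgeR called 0 and DESeq2 called 2. By genotype edgeR called 0, and DESeq2 called 2 in static and 1 in stretched cultures. With the replicate number as a block, 1 inducer was called higher in CAV1-/- in each condition. The share of all genes so called was 0.454% in static and 0.198% in stretched cultures. With the mouse as a block, 3 passed for the average stretch effect. These were Jag1, a Notch ligand (log2 fold change 1.76, adjusted p = 0.0327), Il11, an IL-6 family cytokine (1.43, adjusted p = 0.0327), and Bmp4, a BMP ligand (-1.51, adjusted p = 0.0278), beside 1.47% of all genes. Of 21 co-repressors and stability factors of the Snail and Zeb proteins, 0 passed in either limma fit for the average stretch effect (3 at an unadjusted p of at most 0.05) and 0 by edgeR and DESeq2, and the largest change among those with the same direction in all 4 mice was that of Fbxw7, a ubiquitin ligase subunit (average log2 fold change 0.32, adjusted p = 0.984).

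Epithelial genes were measured as well, from a list of genes that these factors are known to repress and of factors that favour the epithelial state. Of the 32 genes listed, 17 were among the genes analysed and were tested. Of these 17, 2 were called lower in CAV1-/- MCs in both conditions, beside 0.0659% of all genes in static and 0.0512% in stretched cultures, and 0 were called higher. Krt8, a keratin of simple epithelia and mesothelium with an annotated pseudogene (Krt8-ps) that could share its reads, was at 224 and 259 CPM in WT static and at 244 and 289 in WT stretch, against 33.5 and 41.2 in CAV1-/- static and 38.9 and 39.1 in CAV1-/- stretch (log2 fold change -2.66, adjusted p = 0.0134, and -2.74, adjusted p = 0.0114). Cldn15, a claudin of tight junctions, was at 19.5 and 30.2 CPM in WT static and at 17.5 and 19.7 in WT stretch, against 1.32 and 2.06 in CAV1-/- static and 0.825 and 0.985 in CAV1-/- stretch (log2 fold change -3.25, adjusted p = 0.0361, and -3.36, adjusted p = 0.0265). Lrrn4, a mesothelial marker, was also called lower (-3.57, adjusted p = 0.0361, and -4.10, adjusted p = 0.0208). Krt8 is, like Lrrn4, 1 of the 15 mesothelial markers, and all 15 had negative log2 fold changes by genotype (median -2.07 in static and -2.23 in stretched cultures). The part of the lower mesothelial marker level, or of repression by the factors, in the epithelial genes was not tested. Without both cultures of CAV1-/- replicate 1, 0 genes of the whole table were called by genotype in either condition. The same was true in static cultures without either WT static culture, and in stretched cultures without WT stretch replicate 2 or either CAV1-/- stretch culture. Of the 25 mesenchymal genes, limma called 0 in any comparison (0 to 3 at an unadjusted p of at most 0.05), edgeR 0, and DESeq2 2 by genotype in static and 1 in stretched cultures. Itga5, the fibronectin receptor subunit, was higher on stretch in all 4 mice by 1.38-fold to 1.84-fold and passed with the mouse as a block (average log2 fold change 0.68, adjusted p = 0.0365, 0.984 without the block), as did Postn, which encodes the matrix protein periostin (1.25, adjusted p = 0.0327, 0.991 without the block). Of the 25 genes, 7 were higher and 6 were lower on stretch in all 4 mice, beside 14.5% and 16.9% of all genes. Among those lower were Fn1, which encodes fibronectin (0.624 to 0.926 times the static value), and Col3a1, a fibrillar collagen (0.317 to 0.778 times). Cdh1, which encodes E-cadherin, was on the list of epithelial genes but was not among the 13687 genes analysed.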

How the data were processed

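RNAseq of poly-A RNA (NEBNext Ultra library kit, 61-base single reads, HiSeq2500) was analysed in 8 libraries of primary mouse peritoneal MCs, 4 groups of 2. The authors trimmed reads with Cutadapt, estimated counts per gene with RSEM on the GRCm38 transcriptome, scaled them by TMM of edgeR and deposited the signal as TMM-normalized CPM, without genes of low counts. The handling of strand was not given in the sources used here. RSEM shares out reads between similar genes, and TMM assumes that most genes do not change. Each library's values were whole multiples of 1 constant, so that reads were recovered (100% of values whole within 0.01 read). Totals were 9777738 to 21203938 reads, every stretched library being deeper than every static one, and 3 reads, taken as the smallest detectable amount, were 0.146 to 0.308 CPM. This covers counting error only.

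A gene was tested if 2 or more libraries held a value of 1 or more (13665 tested, 22 removed). limma (version 3.58.1, R version 4.3.3) with an intensity trend was fitted to log2(value + 1) with 1 mean per group (4 residual degrees of freedom) and Benjamini-Hochberg adjustment. Fold changes on this scale understate those of low genes. The stretch comparisons pair cultures of 1 mouse: deviations from the group means of the static and stretched cultures of a genotype correlated over genes with r = 0.703 (WT) and 0.850 (CAV1-/-), and the label that gives the mouse is the source of the pairing, so that the fit with the mouse as a block (2 residual degrees of freedom) is printed where it changes a call. Alternatives were pseudocounts of 0.1 and 5, no filter, a mean of at least 5 (10797 genes), median-of-ratios and quantile scaling, no trend, a replicate block, only the 4 libraries compared, edgeR (version 4.0.16) and DESeq2 (version 1.42.0) on recovered reads, each culture left out, and CAV1-/- replicate 1 left out, added after seeing the data.

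Named were all 7 factors, Cav1, genes of 11 further lists that passed the threshold (without the block, or for stretch with the mouse as a block) or that had the largest changes among those whose groups, or whose mice, did not overlap, and the 3 genes most correlated with each factor. Genes called by genotype only with the replicate number as a block were not all named. Of the 15 mesothelial markers, that fit called 8 lower in static and 4 lower in stretched cultures, beside 1.35% and 0.607% of all genes. Id2, Tcf21, Lyz1, Lyz2, Itgam, Fcer1g, Fn1, Col3a1, the smooth muscle and pericyte markers compared between replicates, and genes named for their absence or overlap were named on other grounds, after their values were seen. The members and lists were chosen with earlier results of these data known. Positions and exons are from GENCODE M21 on GRCm38 (13597 gene identifiers matched), and promoter sequences from RefSeq on GRCm38.p6.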

Additional observations from a re-analysis of the deposited data

How the results depend on the processing

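For the 7 factors, 812 values were recomputed under the alternatives: 0 passed the adjusted threshold (smallest adjusted p 0.0812), 736 kept their direction and 76 reversed, 67 of these when 1 culture was left out. Zeb2 by genotype kept its direction under every alternative.

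Counts of called genes moved as follows. With the replicate block (the mouse for stretch, the replicate number for genotype, which here joins different mice with r = 0.522 and 0.484 in static and stretched cultures), 1 gene was called for stretch in CAV1-/-, 246 by genotype in static, 110 in stretched cultures and 201 for the average stretch effect. Zeb2 then had adjusted p of 0.111 and 0.128 by genotype, and the block changed no call of a factor. DESeq2 called 3 and 7 genes for stretch in WT and CAV1-/-, 309 and 237 by genotype, and 34 for the average. By genotype in static cultures, fits without trend called 6 and edgeR 2. With the 4 libraries compared alone, and without CAV1-/- replicate 1, 0 were called in both conditions. Leaving out 1 culture gave 0 to 8 in static and 0 to 7 in stretched cultures.

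Other alternatives reversed 9 log2 fold changes. With edgeR, Snai2 was at -0.0058 for stretch in WT, and with DESeq2 the interaction of Zeb2 was at -0.0068. With quantile scaling, Twist2 was at 0.0036 for stretch in CAV1-/-, and the averages of Zeb1 and Twist1 were at -0.0020 and 0.0012. Without CAV1-/- replicate 1, Twist1 was at -0.22 for stretch in CAV1-/-, Zeb1 at -0.035 by genotype in static cultures, and the interactions of Twist1 and Prrx1 at -0.11 and 0.15. The cause was not tested.

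Leaving out 1 culture in turn turned the sign of 33 of the 42 values of the factors, with these ranges, in fits that assume the lone culture of a group to vary like the other groups. For stretch in WT, Snai1 -0.35 to 1.10, Snai2 -0.60 to 0.75, Zeb1 -0.22 to 0.14, Twist1 -0.30 to 0.083, Twist2 -1.11 to 1.76 and Prrx1 -1.53 to 1.04. For stretch in CAV1-/-, Snai1 -0.23 to 0.87, Zeb1 -0.15 to 0.28, Zeb2 -0.21 to 0.45, Twist1 -0.27 to 0.43, Twist2 -0.67 to 0.58 and Prrx1 -1.004 to 0.0996. For genotype in static cultures, Snai1 -0.35 to 1.10, Snai2 -0.33 to 1.02, Zeb1 -0.035 to 0.38 and Twist2 -0.24 to 2.62. For genotype in stretched cultures, Snai1 -0.19 to 0.84, Twist2 -0.55 to 2.18 and Prrx1 -0.46 to 2.11. For the interaction, Snai1 -0.78 to 0.67, Snai2 -0.31 to 1.04, Zeb1 -0.11 to 0.32, Zeb2 -0.28 to 0.38, Twist1 -0.16 to 0.53, Twist2 -1.80 to 1.06 and Prrx1 -1.49 to 1.08. For the average, Snai1 -0.016 to 0.71, Snai2 -0.076 to 0.60, Zeb1 -0.092 to 0.12, Zeb2 -0.068 to 0.26, Twist1 -0.19 to 0.16, Twist2 -0.58 to 0.85 and Prrx1 -0.99 to 0.29. Values that kept their sign ranged, for stretch in WT, from 0.0069 to 0.14 (Zeb2), and for stretch in CAV1-/- from 0.30 to 0.58 (Snai2). By genotype in static cultures they ranged from 0.41 to 1.06 (Zeb2), -0.74 to -0.043 (Twist1) and 0.099 to 1.97 (Prrx1), and in stretched cultures from 0.26 to 1.15 (Snai2), 0.066 to 0.49 (Zeb1), 0.77 to 0.80 (Zeb2) and -0.28 to -0.13 (Twist1). Depth limits Twist2 and Snai2 most.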

Other observations

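Genes of other lists changed with stretch in the fit with the mouse as a block and did not pass without it. Krt7, a mesothelial keratin, fell on average by 0.88 on the log2 scale (adjusted p = 0.0472), and Upk3b, a uroplakin of mesothelium, fell by 1.04 (adjusted p = 0.0327), while Cspg4, the NG2 proteoglycan of pericytes, rose by 1.196 (adjusted p = 0.0363). Without the block the adjusted p were 0.984, 0.991 and 0.991. Of 15 mesothelial markers, 8 were lower on stretch in all 4 mice and 1 was higher, beside 16.9% and 14.5% of all genes tested. Of the 9 smooth muscle and pericyte markers, 4 were lower on stretch in all 4 mice and 1, Cspg4, was higher.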
